A study of Drosophila melanogaster with 12 samples.

Results

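The Stellate and Suppressor of Stellate repeats of the Drosophila testis, and the repeat listed as mst40, were followed in small RNA and in mRNA libraries. The members were chosen by name: every mRNA entry whose symbol begins with Ste:, SteXh: or Su(Ste):, and the sequences named stellate, stellateHet, suste and mst40 in the list of transposable elements (TEs). This gave 59 of the 15367 entries in the mRNA table, namely 12 Ste copies, 1 SteXh copy, 42 Su(Ste) copies and the 4 repeat sequences, and 4 of the 123 sequences in each of the antisense and sense piRNA tables.

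Stellate genes lie on the X chromosome and encode a protein related to the regulatory beta subunit of casein kinase 2. When they are not silenced in the male germline, their protein forms crystals in spermatocytes and fertility falls. The Su(Ste) repeats on the Y chromosome give rise to piRNAs antisense to Stellate, small RNAs that guide the Argonaute protein Aubergine to Stellate transcripts. AGO3 is another Argonaute protein of the piRNA pathway. No role is given here for mst40.

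Libraries of small RNA, and of total RNA after rRNA removal, were made from testes dissected from wild type and klp10A RNAi flies, all aged 0 to 2 days, with 3 libraries per genotype and assay and 300 pairs of testes pooled in each library. In klp10A RNAi, nos-gal4, a germline driver, expressed the hairpin UAS-klp10A TRiP.HMS00920 against Klp10A, a microtubule-depolymerizing kinesin. The somatic cells of the testis were not targeted, although their RNA is in the libraries. The labels name the controls only as wild type, and the sources used here do not say whether they carried a transgene or whether both stocks had the same X and Y repeat copy numbers, so a difference in copy number between the stocks cannot be told apart from the knockdown.

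Klp10A itself, the target of the hairpin, had 1458, 802 and 1527 counts in wild type against 327, 364 and 313 in klp10A RNAi. The genotypes did not overlap, and the log2 fold change was -2.35 ± 0.16 (SE, edgeR adjusted p = 0.00105). Without klp10A RNAi replicate 1 or 3 the adjusted p of edgeR was 0.0114 or 0.0174, above the limit of 0.01 used for genes. Total mRNA counts ran from 18634687 to 25536724 per library. The TMM factors, which correct for differences in RNA composition, were 0.82, 0.70 and 1.04 in wild type against 1.33, 0.99 and 1.27 in klp10A RNAi. Raw counts are given before this correction. With total counts in place of TMM, the median log2 fold change over all genes was 0.50 in place of 0.01. Marker genes of spermatocytes, the cells in which Stellate is known to be expressed, moved with genotype: the sum over 8 markers ran from 88.3 to 107 CPM (counts scaled to library size with the TMM factors) in wild type and from 131 to 146 in klp10A RNAi. All 8 estimates were higher and 0 passed the limit in edgeR or DESeq2 (6 at an unadjusted p under 0.05). Of all genes tested in edgeR, 9.65% were higher at an unadjusted p under 0.05. The sum over the 2 spermatogonial markers, bam and bgcn, ran from 32.0 to 36.3 CPM in wild type and from 42.8 to 45.5 in klp10A RNAi, again without overlap and with 0 past the limit in edgeR or DESeq2 (1 at an unadjusted p under 0.05). The sum over 7 accessory gland and ejaculatory duct markers ran from 2733 to 3795 CPM in wild type and from 2062 to 2485 in klp10A RNAi, with 0 past the limit in edgeR or DESeq2 (3 at an unadjusted p under 0.05). The sums of 2 other marker groups overlapped between genotypes. Over 7 spermatid markers the sum ran from 1973 to 2364 CPM in wild type and from 2030 to 2542 in klp10A RNAi. Over 4 cyst cell and hub markers it ran from 53.9 to 64.3 CPM in wild type and from 49.0 to 62.6 in klp10A RNAi. In both groups 0 passed the limit in edgeR or DESeq2 (0 and 1 at an unadjusted p under 0.05). In these bulk samples, fewer cells of a type and less RNA per cell cannot be told apart.

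Antisense piRNAs of the Su(Ste) sequence were higher in klp10A RNAi. The normalized antisense count of suste was 2744903, 4364599 and 3372762 in wild type against 6593346, 6901148 and 7638845 in klp10A RNAi. The lowest klp10A RNAi library exceeded the highest wild type library. The mean was 3494088 ± 816636 (SD, n = 3) in wild type and 7044446 ± 537278 in klp10A RNAi, 2.02-fold higher, with a log2 fold change of 1.03 ± 0.18 (SE, limma adjusted p = 0.00264). These values are normalized by the authors to miRNA hairpin reads, and their scale and the read depth behind them are not given in the sources used here.

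mst40 also passed the limit for TEs, an adjusted p under 0.1 with a change over 1.5-fold. Its normalized antisense count was 97266, 138910 and 88880 in wild type against 213949, 200408 and 170231 in klp10A RNAi, with no overlap. It was 1.80-fold higher, a log2 fold change of 0.87 ± 0.19 (SE, limma adjusted p = 0.00709).

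At the sequences of Stellate itself the differences were smaller. The normalized antisense count of stellate was 894711, 1246105 and 923395 in wild type against 1334776, 1462138 and 1311354 in klp10A RNAi. That of stellateHet was 671732, 932223 and 696994 in wild type against 1029053, 1122050 and 1016074 in klp10A RNAi. Neither overlapped between genotypes, but both folds, 1.34 and 1.38, were under the limit of 1.5, with log2 fold changes of 0.44 ± 0.15 (SE, limma adjusted p = 0.0342) and 0.48 ± 0.14 (limma adjusted p = 0.0234). Wild type replicate 2 was the highest of its group at both, and without it both passed the limit, at 0.59 and 0.62 on the log2 scale.

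So 2 of the 4 sequences passed in antisense piRNA, while 62.6% of all 123 TEs were called higher by the same rule and 65.0% were called in either direction. All 4 had no overlap between genotypes, as did 81.3% of TEs in that direction. The median log2 fold change over the 123 TEs was 0.79, above the values of stellate and stellateHet and below those of suste and mst40. With libraries set to equal totals over TEs, 0 of the 4 passed. The log2 fold changes of stellate and stellateHet turned to -0.42 and -0.38 (limma adjusted p = 0.0357 and 0.0419), under the fold limit. Those of suste and mst40 fell to 0.18 and 0.01 (limma adjusted p = 0.251 and 0.957). Centred on the median over TEs, stellate and stellateHet stood at -0.33 and -0.29 (limma adjusted p = 0.102 and 0.134). Equal totals remove a rise that most TEs share, so such values show only changes relative to other TEs.

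**Figure D1:**
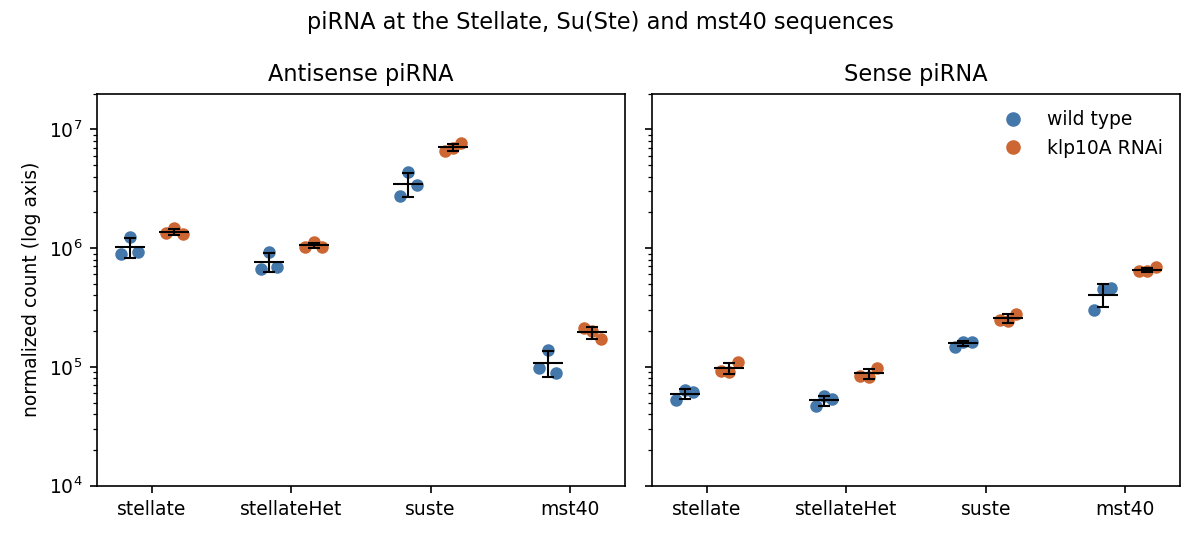
Normalized piRNA counts (log axis) of stellate, stellateHet, suste and mst40, antisense at left and sense at right. Each point is a library, with the mean and SD of the 3 libraries per genotype. Under the authors' normalization every klp10A RNAi library lies above every wild type library at all 4 sequences on both strands. With libraries set to equal totals over TEs, stellate and stellateHet turn lower in antisense piRNA (-0.42 and -0.38 on the log2 scale), and the sense values of all 4 lie just below 0 with overlap between genotypes.

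Sense piRNAs were higher at all 4 sequences under the authors' normalization, by much the same factor, but a difference was not detectable with libraries set to equal totals over TEs. stellate had 52560, 64048 and 61263 normalized sense counts in wild type against 91512, 90330 and 108874 in klp10A RNAi. stellateHet had 46402, 56334 and 53913 in wild type against 84150, 82626 and 98052 in klp10A RNAi. The gap between genotypes was wider than the spread within either. suste had 148072, 163178 and 160867 normalized sense counts in wild type against 248007, 241052 and 279794 in klp10A RNAi. mst40 had 303556, 451815 and 460576 in wild type against 638682, 642484 and 686466 in klp10A RNAi. Here, too, no library of either genotype reached into the range of the other.

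The folds in sense piRNA were 1.63 for stellate, 1.69 for stellateHet, 1.63 for suste and 1.62 for mst40. The log2 fold changes were 0.71 ± 0.13, 0.76 ± 0.13, 0.70 ± 0.11 and 0.72 ± 0.18 (SE), with limma adjusted p of 0.00314, 0.00225, 0.00184 and 0.0107. Thus 4 of 4 passed the limit, against 75.6% of the 123 TEs called higher, and all 4 were without overlap, against 78.9% of TEs in that direction. The median over all TEs was 0.85 on the log2 scale, above each of the 4 values, and scaling to the total over TEs brought them to -0.08, -0.03, -0.09 and -0.07, none a detectable difference (limma adjusted p from 0.587 to 0.799), with overlap of the shares between genotypes at all 4. Without wild type replicate 1, mst40 stood at 0.52 on the log2 scale and no longer passed the fold limit.

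Both strands summed, suste rose by 1.02 on the log2 scale (limma adjusted p = 0.000917) and mst40 by 0.75 (limma adjusted p = 0.00243), but scaled to the total over TEs neither passed, with suste at 0.19 (limma adjusted p = 0.203) and mst40 at -0.09 (limma adjusted p = 0.546). stellate and stellateHet stood at 0.45 and 0.50, under the fold limit. After that scaling they stood at -0.38 and -0.34 (limma adjusted p = 0.0301 and 0.0340). Centred on the median over TEs they stood at -0.18 and -0.14 (limma adjusted p = 0.197 and 0.287). Under the authors' normalization 2 of 4 thus passed, with 71.5% of TEs called higher by the same rule. Without wild type replicate 1 only suste passed, with mst40 at 0.58, and without wild type replicate 2 all 4 did.

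**Figure D2:**
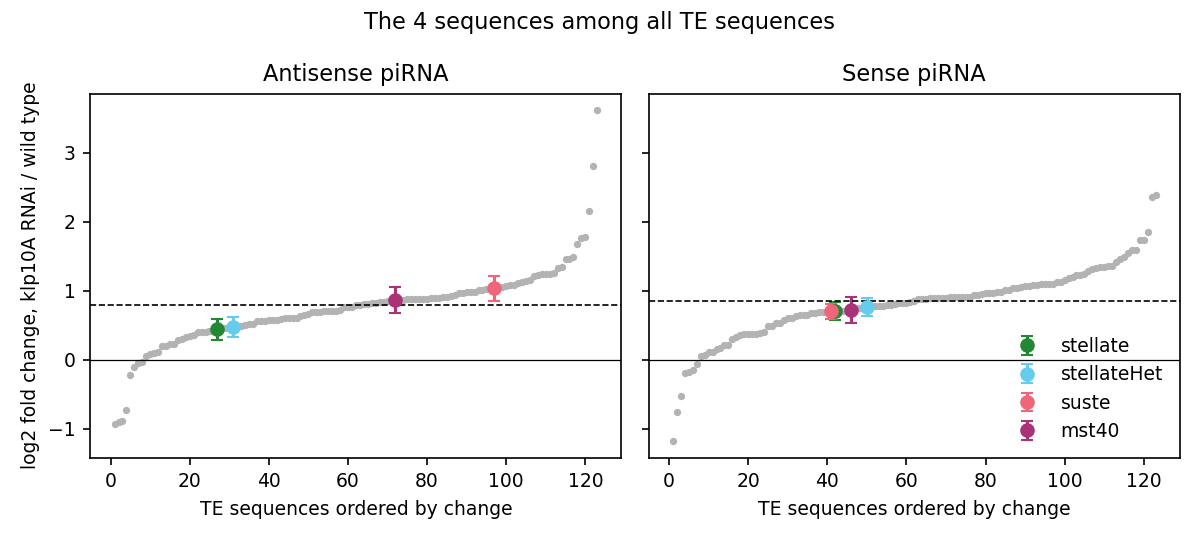
Log2 fold change in klp10A RNAi over wild type of normalized piRNA counts at 123 TEs, ordered from lowest to highest, for antisense (left) and sense (right) piRNA. Grey points are other TEs, coloured points the 4 sequences with their SE, and the dashed line the median over TEs, 0.79 for antisense and 0.85 for sense. In antisense piRNA stellate (0.44) and stellateHet (0.48) lie below the median and suste (1.03) above it, whereas in sense piRNA all 4 lie just below it, and setting libraries to equal totals over TEs puts stellate and stellateHet antisense below 0 (-0.42 and -0.38) and all 4 sense values within 0.1 of 0, on its lower side.

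Ratios within a library do not depend on how libraries were scaled to each other. The ratio of antisense piRNA at suste to that at stellate plus stellateHet was 1.75, 2.00 and 2.08 in wild type against 2.79, 2.67 and 3.28 in klp10A RNAi. It went from 1.95 ± 0.17 (SD, n = 3) to 2.91 ± 0.32 without overlap, with p = 0.1 in a two-sided exact permutation test, the smallest p that 3 libraries against 3 allow. Each klp10A RNAi library thus held more antisense piRNA of Su(Ste) per antisense piRNA of Stellate than any wild type library.

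The same ratio in sense piRNA overlapped between genotypes. It was 1.42 ± 0.07 (SD, n = 3) in wild type and 1.39 ± 0.03 in klp10A RNAi (exact permutation p = 0.6). The ratio of stellateHet to stellate moved little in size but without overlap, from 0.751 ± 0.003 to 0.771 ± 0.004 in antisense and from 0.881 ± 0.002 to 0.912 ± 0.010 in sense piRNA (SD, n = 3, exact permutation p = 0.1 for each). Reads that fit several of these related sequences were divided between them by estimation, so the sequences are not independent of each other.

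As a share of all antisense piRNA on TEs, suste took 21.4%, 26.5% and 23.8% in wild type against 25.8%, 27.2% and 28.0% in klp10A RNAi, an overlap (exact permutation p = 0.2). The share of stellate was lower in klp10A RNAi without overlap, at 7.02% ± 0.52 (SD, n = 3) in wild type and 5.27% ± 0.48 in klp10A RNAi (exact permutation p = 0.1). stellateHet likewise went from 5.27% ± 0.37 to 4.06% ± 0.35 (exact permutation p = 0.1). The 4 sequences as a group held 36.9% ± 3.23 of antisense piRNA on TEs in wild type and 37.1% ± 1.18 in klp10A RNAi (exact permutation p = 1), and 8.87% ± 0.65 and 8.39% ± 0.18 of sense piRNA (exact permutation p = 0.3). These shares are of normalized counts and are not corrected for the length of each sequence. Of the 27 sums, shares and ratios compared in this way, in piRNA and in RNA, 10 reached p = 0.1 in the exact permutation test, and the lowest Benjamini-Hochberg adjusted p over them was 0.27.

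The 4 sequences divide by strand. In wild type the sense share of piRNA was 5.55%, 4.89% and 6.22% at stellate, and 5.12%, 3.60% and 4.55% at suste. stellateHet was alike, with a mean of 6.45% ± 0.74 (SD, n = 3). At these 3 sequences piRNA was therefore almost wholly antisense, in a table where the median sense share of the 123 TEs was 33.2% and 19 TEs were under 10%. suste had the 2nd lowest sense share of all TEs, stellate the 7th and stellateHet the 11th.

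mst40 had the opposite bias. Its sense share was 75.7%, 76.5% and 83.8% in wild type against 74.9%, 76.2% and 80.1% in klp10A RNAi, and it was the 12th highest of the 123 TEs, of which 32 were over 50%.

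The strand bias was not detectably altered by klp10A RNAi. The sense share went from 5.55% ± 0.67 to 6.63% ± 0.94 (SD, n = 3) at stellate and from 6.45% ± 0.74 to 7.74% ± 0.98 at stellateHet. It went from 4.42% ± 0.77 to 3.51% ± 0.13 at suste and from 78.7% ± 4.47 to 77.1% ± 2.72 at mst40. The libraries overlapped at each of them. The log2 ratio of sense to antisense changed by 0.27 ± 0.16 (SE), 0.28 ± 0.15, -0.33 ± 0.16 and -0.15 ± 0.24, with limma adjusted p of 0.309, 0.267, 0.206 and 0.679. None of the 4 passed (0 also at an unadjusted p under 0.05), against 9.76% of TEs called in either direction.

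**Figure D3:**
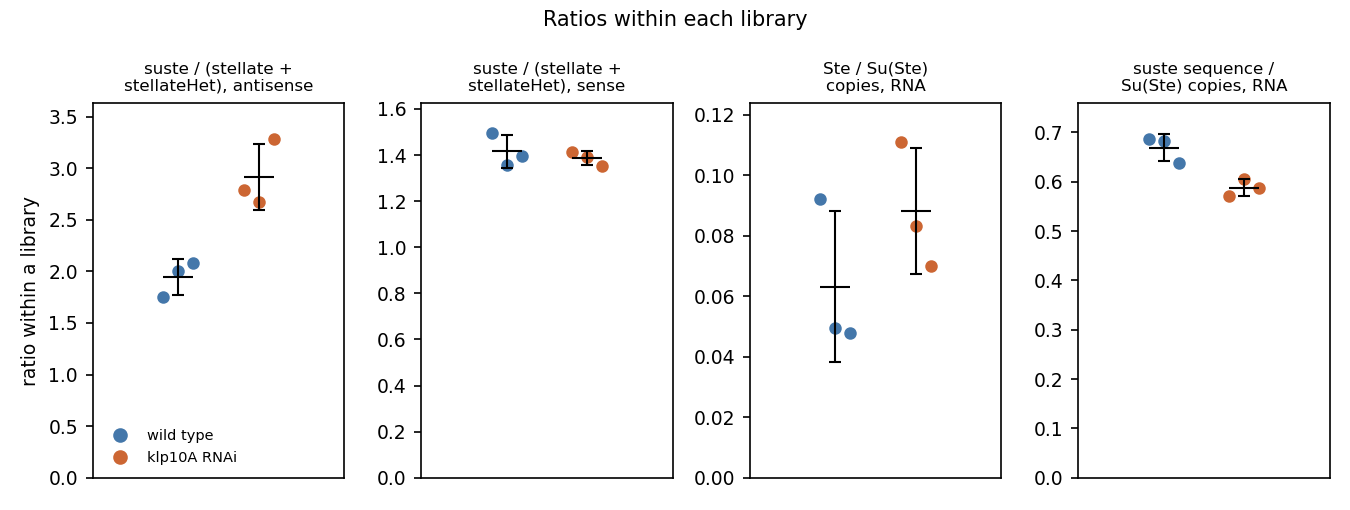
Ratios within each library, on linear axes from 0, with points for libraries and the mean and SD of 3 libraries per genotype. From left to right: antisense piRNA of suste over that of stellate plus stellateHet, the same in sense piRNA, RNA counts of the Ste copies over those of the Su(Ste) copies, and RNA counts of the suste sequence over those of the Su(Ste) copies. The first ratio is higher in klp10A RNAi without overlap (1.95 to 2.91), the last is lower without overlap (0.669 to 0.588), and the other ratios overlap.

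RNA of the Stellate gene copies was then compared. In the RefSeq annotation of Release 6 of the genome, which is not the dm3 build of the files, the 12 Ste copies and the SteXh copy are protein-coding genes on X, and the 12 Ste copies lie side by side with 0 other genes between them. Of the 42 Su(Ste) copies, 31 were matched, and all of these are long non-coding RNA genes on Y. Of the 55 copies, 52 were tested, and 3 (Ste:CG33242, Su(Ste):CR42413 and Su(Ste):CR42422) had 0 counts in every library. By sampling alone this allows up to 3 counts in each, but it does not bound the RNA of a copy whose reads also fit other copies. Reads that fit many copies were shared among them by an estimation step, so the copies of a family are not independent measurements. A family sum does not depend on how reads were divided among its copies. It may depend on reads that also fit related families or genes, which was not tested. Its SE was not always smaller than that of a copy. For Su(Ste) the SE of the sum was 0.21, and that of Su(Ste):CR42421 was 0.14.

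The summed Ste copies had 1195, 722 and 828 counts in wild type against 3528, 2483 and 2166 in klp10A RNAi. At 62.8, 51.3 and 39.9 CPM against 142, 98.5 and 90.4, the genotypes did not overlap. The mean was 51.3 ± 11.5 CPM (SD, n = 3) in wild type and 110 ± 27.9 in klp10A RNAi, 2.15-fold higher, with a log2 fold change of 1.10 ± 0.23 (SE, edgeR adjusted p = 0.0285). This did not pass the limit of 0.01. The DESeq2 Wald test gave 1.11 with an adjusted p of 0.000405, past that limit. Summed with SteXh and the stellate and stellateHet sequences, a setting chosen after seeing the data, the change was smaller. It was 0.64 on the log2 scale (edgeR adjusted p = 0.0997).

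SteXh, the single copy SteXh:CG42398, rose and passed it. It had 48, 26 and 38 counts in wild type against 138, 139 and 106 in klp10A RNAi. No klp10A RNAi library was near the wild type range, which was 1.83 to 2.52 CPM against 4.42 to 5.56 CPM. The family fit gave a 2.50-fold difference, a log2 fold change of 1.32 ± 0.20 (SE, edgeR adjusted p = 0.00822). The call was lost when any library other than wild type replicate 1 was left out: without wild type replicates 2 and 3 the adjusted p of edgeR was 0.0107 and 0.0326, and without klp10A RNAi replicates 1, 2 and 3 it was 0.0518, 0.0452 and 0.0330.

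The summed Su(Ste) copies had 12983, 14587 and 17281 counts in wild type against 31799, 29878 and 30875 in klp10A RNAi. At 682, 1037 and 832 CPM against 1282, 1186 and 1288, the genotypes did not overlap, although wild type replicate 2 came close. The mean was 851 ± 178 CPM (SD, n = 3) in wild type and 1252 ± 57.6 in klp10A RNAi, 1.47-fold higher, with a log2 fold change of 0.56 ± 0.21 (SE, edgeR adjusted p = 0.151). That is not past the limit, nor was it with DESeq2.

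**Figure D4:**
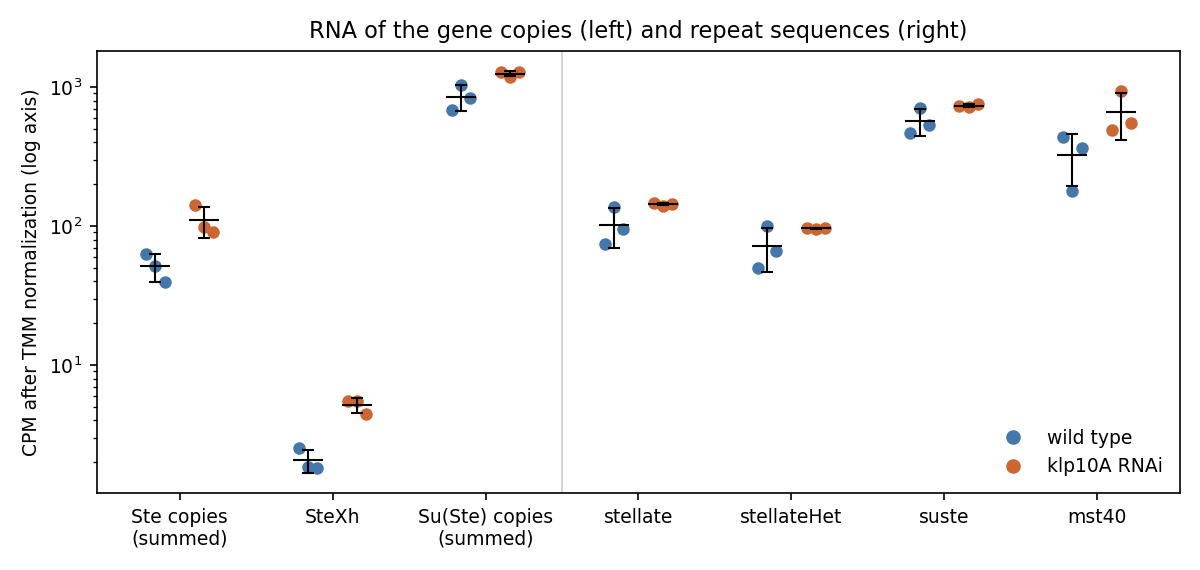
RNA in CPM after TMM normalization (log axis) of the summed Ste copies, SteXh and the summed Su(Ste) copies (left) and of the 4 repeat sequences (right). Each point is a library, with the mean and SD of 3 libraries per genotype. The Ste copies go from 51.3 to 110 CPM, SteXh from 2.07 to 5.17 and the Su(Ste) copies from 851 to 1252 without overlap, while at stellateHet wild type replicate 2, at 99.8 CPM, lies above all klp10A RNAi libraries.

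Copy by copy, all 11 tested Ste copies were estimated higher in klp10A RNAi without overlap between genotypes, with log2 fold changes from 0.98 to 1.24 and a median of 1.12. The median over all 11974 genes tested was 0.01. None passed the limit in edgeR (0 of 11, with adjusted p from 0.0158 to 0.0547), 11 had an unadjusted p under 0.05 and DESeq2, which called 1.01% of all genes higher and 6.45% in either direction, called 9 of them. In edgeR 0.200% of all genes were called higher and 2.05% in either direction, while 17.1% had all klp10A RNAi libraries above all wild type libraries.

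The Ste copy with the highest mean CPM, Ste:CG33240, had 223, 138 and 143 counts in wild type against 620, 439 and 393 in klp10A RNAi, for a log2 fold change of 1.05 (edgeR adjusted p = 0.0353). Ste:CG33245 had 163, 99 and 113 counts in wild type against 486, 344 and 297 in klp10A RNAi, and Ste:CG33241 had 156, 93 and 113 in wild type against 482, 337 and 290 in klp10A RNAi. Replicate 1 was the highest of each genotype in all 3 copies, as in the family sum. Their log2 fold changes were 1.12 and 1.15 (edgeR adjusted p = 0.0256 and 0.0230).

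All 40 tested Su(Ste) copies were estimated higher, 36 of them without overlap, with log2 fold changes from 0.42 to 0.98 and a median of 0.55. Of all genes, 17.1% had all klp10A RNAi libraries above all wild type libraries. Reads that fit several copies were shared among them, so these are not 40 separate results. A single copy passed the limit, and 36 had an unadjusted p under 0.05 in edgeR, as did 9.65% of all genes in that direction. Together with SteXh that is 2 of 52 copies, where edgeR called 0.200% of all genes higher. DESeq2 called 7 Su(Ste) copies, where it called 1.01% of all genes higher.

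The copy that passed was Su(Ste):CR42421. It had 90, 79 and 105 counts in wild type against 249, 257 and 244 in klp10A RNAi. The 3 klp10A RNAi libraries were within 10.03 to 10.19 CPM and the wild type libraries within 4.73 to 5.62 CPM. Its log2 fold change was 0.98 ± 0.14 (SE, edgeR adjusted p = 0.00577), the highest of the 40, and its share of Su(Ste) reads went from 0.604% to 0.810%. The call held without wild type replicate 2, with an adjusted p of 0.00317, and was lost without each other library in turn, with adjusted p of edgeR from 0.0180 to 0.0394.

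The 3 Su(Ste) copies with the highest mean CPM lay near the family's median. Su(Ste):CR42440 had 845, 964 and 1141 counts in wild type against 2075, 1986 and 2036 in klp10A RNAi, with a log2 fold change of 0.56 (edgeR adjusted p = 0.0997). Su(Ste):CR42441 had 668, 703 and 918 in wild type against 1661, 1569 and 1635 in klp10A RNAi, with 0.61 (edgeR adjusted p = 0.0603). Su(Ste):CR42408 had 579, 682 and 824 in wild type against 1471, 1351 and 1435 in klp10A RNAi, with 0.54 (edgeR adjusted p = 0.117). None of the 3 overlapped between genotypes.

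**Figure D5:**
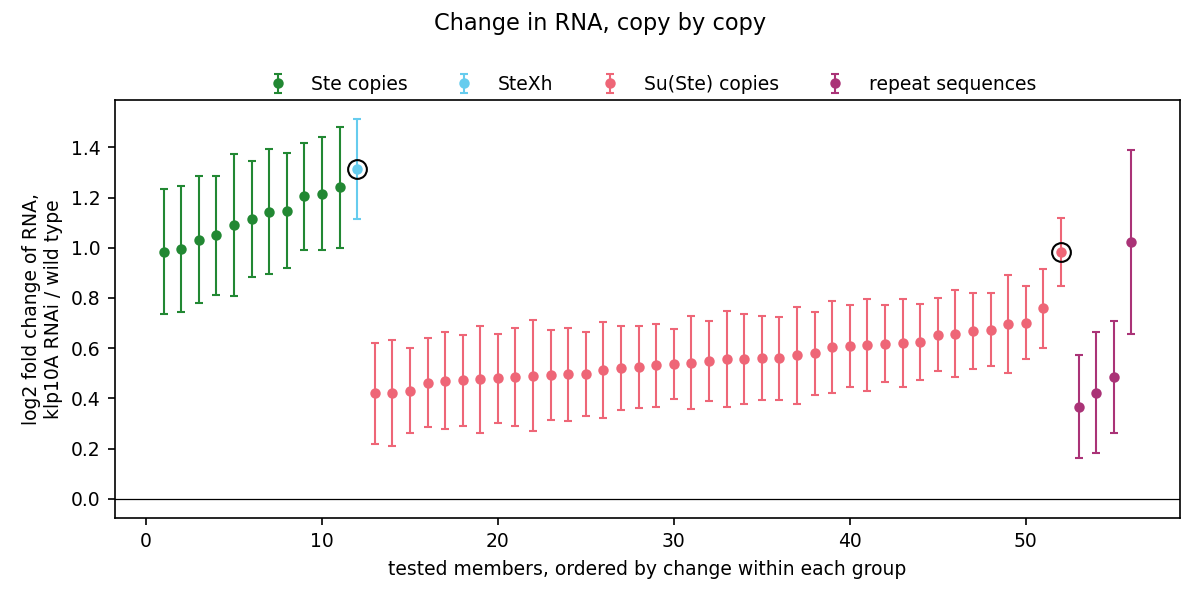
Log2 fold change of RNA in klp10A RNAi over wild type, with its SE, for the 52 tested copies and the 4 repeat sequences, ordered within each group. Black circles mark the 2 copies past the limit for genes, SteXh:CG42398 (1.31) and Su(Ste):CR42421 (0.98). The 11 Ste copies lie between 0.98 and 1.24, and the 40 Su(Ste) copies between 0.42 and 0.98.

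RNA was also counted on the 4 repeat sequences, of which stellate, stellateHet and suste may lie over the same loci as the gene copies. The stellate sequence had 1416, 1937 and 1971 RNA counts in wild type against 3611, 3550 and 3448 in klp10A RNAi. In CPM this was 74.5, 138 and 95.0 against 146, 141 and 144. The genotypes did not overlap, but wild type replicate 2 lay just under the klp10A RNAi libraries. The log2 fold change was 0.49 ± 0.22 (SE, edgeR adjusted p = 0.219).

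stellateHet had 945, 1403 and 1377 counts in wild type against 2424, 2397 and 2315 in klp10A RNAi. At 49.7, 99.8 and 66.4 CPM against 97.7, 95.0 and 96.5 the genotypes overlapped, with a log2 fold change of 0.42 (edgeR adjusted p = 0.307). The suste sequence had 8924, 9958 and 11032 counts in wild type against 18165, 18082 and 18143 in klp10A RNAi. At 469, 708 and 532 CPM against 732, 717 and 756, wild type replicate 2 was again close to the klp10A RNAi libraries, and the log2 fold change was 0.37 (edgeR adjusted p = 0.296). Without wild type replicate 2, stellate stood at 0.76 (edgeR adjusted p = 0.0111) and stellateHet at 0.73 (edgeR adjusted p = 0.0158), both past the limit for TEs. Without wild type replicate 1 they stood at 0.30 (edgeR adjusted p = 0.353) and 0.22 (edgeR adjusted p = 0.502), and suste at 0.25 (edgeR adjusted p = 0.480).

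Of the 4, mst40 had the widest spread between libraries. It had 8263, 2533 and 7586 counts in wild type against 12235, 23828 and 13302 in klp10A RNAi, or 435, 180 and 366 CPM against 493, 945 and 555. The means differed 2.03-fold without overlap, and the log2 fold change of 1.02 ± 0.37 (SE, edgeR adjusted p = 0.131) did not pass the limit. In all, 0 of the 4 sequences passed in edgeR (1 at an unadjusted p under 0.05, and 1 in DESeq2, mst40), with 1.59% of the 126 TEs tested called higher and 9.52% in either direction. With total counts in place of TMM, which moved the median of all genes to 0.50, all 4 passed, at 1.01 for stellate, 0.95 for stellateHet, 0.88 for suste and 1.41 for mst40. The share of all TEs called with total counts is not given here, so these calls cannot be set against it. After TMM, 9.52% of TEs had all klp10A RNAi libraries above all wild type libraries, as 3 of the 4 sequences had. The median log2 fold change over the 126 TEs tested was -0.14 after TMM.

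Ratios of RNA within a library set the families side by side. The Ste copies relative to the Su(Ste) copies stood at 0.0920, 0.0495 and 0.0479 in wild type against 0.111, 0.0831 and 0.0702 in klp10A RNAi. Wild type replicate 1 lay within the klp10A RNAi range (exact permutation p = 0.3). Relative to the summed spermatocyte markers, which were themselves higher in klp10A RNAi, the Ste copies went from 0.522 ± 0.174 to 0.785 ± 0.177 (SD, n = 3, exact permutation p = 0.2), with overlap. The Su(Ste) copies relative to the same markers were at 8.41 ± 1.14 and 8.93 ± 0.12 (exact permutation p = 0.4). The part of spermatocyte RNA in the differences of Ste and Su(Ste) RNA was not tested beyond these ratios.

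Other genes on the Y had estimates near 0. Of 12 listed Y-linked genes, 7 were matched and 6 tested, with log2 fold changes from -0.11 to 0.08 and 0 called (0 also at an unadjusted p under 0.05, and in DESeq2). The ratio of Su(Ste) RNA to theirs was 7.50 ± 3.05 in wild type and 10.4 ± 0.82 in klp10A RNAi, with overlap (SD, n = 3, exact permutation p = 0.2).

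Among the relatives of Stellate, Ste12DOR, a Stellate-related gene on X with 9 annotated genes between it and the Ste copies in the RefSeq order, had 81, 47 and 61 counts in wild type against 223, 159 and 141 in klp10A RNAi. It showed no overlap and a log2 fold change of 1.004 ± 0.22 (SE, edgeR adjusted p = 0.0337). Ssl, a relative of the beta subunit, had 222, 142 and 282 counts in wild type against 490, 501 and 395 in klp10A RNAi, also without overlap, at 0.66 ± 0.16 (edgeR adjusted p = 0.0415). Neither passed the limit for genes, and DESeq2 called Ste12DOR with an adjusted p of 0.00469.

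The other genes of the casein kinase 2 list overlapped between genotypes. CkIIbeta, the regulatory subunit, had 325, 254 and 306 counts in wild type against 370, 249 and 317 in klp10A RNAi, with a log2 fold change of -0.39 (edgeR adjusted p = 0.215) that turned to 0.14 with total counts in place of TMM. CkIIalpha, the catalytic subunit, stood at 0.09, CkIIbeta2 at 0.16, CkIIalpha-i1 at 0.16 and CkIIalpha-i3 at 0.19. Thus 0 of 7 genes of this list were called in edgeR, 2 at an unadjusted p under 0.05, and 1 in DESeq2. Of all genes, 9.65% were higher at an unadjusted p under 0.05 in edgeR, and DESeq2 called 1.01% higher.

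Of 28 listed germline piRNA pathway genes, 26 were matched and tested. Their log2 fold changes ran from -0.37 to 0.92 with a median of 0.18, and 20 were estimated higher. The median over all genes tested was 0.01. None passed the limit (0 in edgeR or DESeq2), and 5 had an unadjusted p under 0.05 in edgeR. Of these 5, del was lower in klp10A RNAi. Of all genes, 9.65% were higher at that level. The lowest edgeR adjusted p of the list was 0.0807, at squ. aub, which encodes Aubergine, was named after its values were seen. It had 109, 88 and 191 counts in wild type against 267, 246 and 276 in klp10A RNAi, without overlap after scaling. The log2 fold change was 0.59 ± 0.20 (SE, edgeR adjusted p = 0.111). AGO3, named in the same way, had 333, 163 and 321 counts in wild type against 326, 376 and 334 in klp10A RNAi, with overlap. Its log2 fold change was -0.09 ± 0.17 (SE, edgeR adjusted p = 0.750).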

How the data were processed

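Testes were labelled wild type or klp10A RNAi, with 3 libraries per genotype and assay. For small RNA, the authors trimmed adapters with Trimmomatic 0.27 and set aside rRNA and miRNA hairpin reads. The other reads of 23 to 29 nt were mapped with Bowtie2 2.2.3 onto dm3 transcripts (1 mismatch allowed), and eXpress estimated abundance. The deposited piRNA values are normalized by miRNA hairpin reads, on a scale that is not stated, and were treated as a score. mRNA reads were mapped by the authors with STAR 2.6.0a on dm3, allowing 100 multi-alignments, and the deposited counts per gene and TE come from TEtranscripts, which shares multi-mapped reads among copies. The sample descriptions call these counts normalized, but they are whole numbers with unequal totals. The strand setting is not given in the sources used here.

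piRNA values were tested with limma 3.58.1 on log2(value + 1), and counts with edgeR 4.0.16 (TMM, filterByExpr, quasi-likelihood F-test) in R 4.3.3, with Benjamini-Hochberg adjustment over all TEs, or over all genes and TEs tested. CPM are counts scaled to the TMM library size. The limits were an adjusted p under 0.1 with over 1.5-fold for TEs and an adjusted p under 0.01 for genes. Single values were compared by exact permutation over 20 splits, which cannot give a two-sided p under 0.1. The tests were tested on simulated data. Alternatives were pseudocounts of 10 and 0.1, a TE mean of at least 100, scaling to the total or median over TEs, a limma trend, DESeq2 1.42.0 size factors and Wald test, no filter, a filter of 1 CPM in 3 libraries, TMM over genes alone, total counts, a replicate block and omission of each replicate. Scaling to the other TEs, and sums of copies with repeat sequences, were chosen after seeing the data.

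The members, lists and tests were chosen with earlier results of these data known. Named in full were the repeat sequences, the family sums, the 3 copies per family with the highest mean CPM, each copy or listed gene past the limit, casein kinase 2 genes and Klp10A. Each library pools 300 pairs of testes, and p-values measure the spread between such pools. RefSeq was used for chromosomes, gene types and neighbours only.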

Additional observations from a re-analysis of the deposited data

How the results depend on the processing

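The piRNA calls were made with the normalization to miRNA hairpins, and scaling over TEs cannot decide whether they depend on it. Such scaling removes by construction a rise shared by most TEs and leaves only changes relative to other TEs. The paper reports more piRNA of repeats and piRNA clusters after normalizing to total library reads, a comparison not made here. Scaled to the total over TEs, centred on the median, or scaled to the other TEs (chosen after seeing the data), 0 of the 4 sequences passed in antisense, sense and summed piRNA. In sense piRNA the log2 fold changes came near 0 under these 3 settings, just below it and with no detectable difference (limma adjusted p from 0.563 to 0.917), at -0.083, -0.072 and -0.091 for stellate, -0.034, -0.023 and -0.041 for stellateHet, -0.090, -0.079 and -0.098 for suste and -0.073, -0.062 and -0.080 for mst40. In summed piRNA mst40 was likewise at -0.085 under the total and -0.081 under the other TEs (limma adjusted p = 0.546 and 0.584). The within-library ratio of suste to Stellate antisense piRNA does not depend on them. Leaving out each replicate gave 2 to 4 calls of 4 in antisense, 3 to 4 in sense and 1 to 4 in summed piRNA.

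In mRNA, 2 of 56 members tested passed in edgeR. The DESeq2 Wald test called 18 (and 6.45% of all genes, against 2.05% in edgeR), total counts without TMM 25 (and 4.33% of all genes, whose median moved from 0.01 to 0.50), and leaving out each replicate 0 to 10. Of the 3 family sums 1 passed, against 2 with the Wald test, 2 with total counts and 0 to 1 without each replicate. The Ste sum was 1.11 with the Wald test and 1.64 with total counts, both past the limit, and 0.89 to 1.28 without each replicate. The SteXh sum was 1.24 to 1.49 without each replicate, and the Su(Ste) sum 0.42 to 0.73. With copies and repeat sequences summed (chosen after seeing the data), Ste with SteXh, stellate and stellateHet stood at 0.64 (edgeR adjusted p = 0.0997). Su(Ste) with suste stood at 0.49 (edgeR adjusted p = 0.218). Neither passed the limit. Of the listed genes 0 passed, against 1 with the Wald test and 2 with total counts. All 52 copies were estimated higher under every setting run.

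Replicate numbers did not pair the libraries: same-numbered libraries had correlations of their deviations from the genotype means from -0.46 to -0.14 in mRNA, -0.70 to -0.13 in sense and -0.35 to 0.24 in antisense piRNA, and 0 of 3 numbers matched best with their own. With the replicate block 0 mRNA members and 0 family sums passed (SteXh sum 1.32, edgeR adjusted p = 0.0304), and no piRNA call changed. The causes of these shifts were not tested.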

Other observations

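The repeat sequences and the gene copies of a family did not take reads in a fixed ratio. The suste sequence held 0.687, 0.683 and 0.638 RNA counts per count on the Su(Ste) copies in wild type against 0.571, 0.605 and 0.588 in klp10A RNAi. Every klp10A RNAi library lay below every wild type library (0.669 ± 0.027 against 0.588 ± 0.017, SD, n = 3, exact permutation p = 0.1, the smallest possible). The stellate sequence held 1.18, 2.68 and 2.38 counts per count on the Ste copies in wild type against 1.02, 1.43 and 1.59 in klp10A RNAi, with overlap (exact permutation p = 0.3). Within the Ste copies, reads were divided in much the same shares in both genotypes, with Ste:CG33240 at 18.5% of Ste counts in wild type and 17.8% in klp10A RNAi. Reads that fit several copies were divided by estimation, so stable shares may come from that step and say little about the copies.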
